A study of Mus musculus with 28 samples.

Results

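The genes described here encode the nuclear share of the mitochondrial respiratory chain and of ATP synthase, 80 of the 14888 genes listed in both deposited tables. The rule that chose them reads names and no measured value: a protein-coding gene entered when its symbol was that of a subunit of complex I (Nduf), complex II (Sdh), complex III (Uqcr, Cyc1), complex IV (Cox4 to Cox8) or ATP synthase (Atp5, here complex V), or was Cycs. The rule gave 36 genes of complex I, 4 of complex II, 9 of complex III, 13 of complex IV and 17 of complex V, with Cycs, the gene of cytochrome c, on its own. Ndufa4, long counted to complex I and now placed in complex IV, was counted there. One further gene, Ndufa4l2, met the rule in the social stress table only and was not analysed here. All 80 passed the filter on low counts, as did every other gene listed, so none was lost before testing.

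The respiratory chain passes electrons from NADH (complex I) or succinate (complex II) through complex III and cytochrome c to oxygen at complex IV, and the protons pumped on the way drive ATP synthase. A core of these proteins is encoded in the mitochondrial genome, while the remaining subunits are made from nuclear genes, imported and built into the complexes by assembly factors. Neurons depend heavily on this pathway for the ATP that their ion pumps and synapses consume.

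Male C57Bl/6 mice were studied by RNA-seq of frontal cortex after ribosomal RNA depletion, and each library came from a separate mouse. In the first cohort 8 mice under chronic social stress (CSS) were compared with 8 age-matched controls (CSS_control), all aged 21 weeks. Stress meant 7 weeks of isolation, with confrontations 2 times a day over the final 20 days. In the second cohort 6 mice with type 2 diabetes (T2D) were compared with 6 age-matched controls (T2D_control), aged 30 or 31 weeks. Diabetes was modelled with the beta-cell toxin streptozotocin at 75 mg/kg and a high-fat diet, with 43.2% of its energy as fat, for 21 weeks. The labels name no genetic modification in any of the 4 groups and give no treatment of the controls beyond control conditions.

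Totals of the listed genes ran from 12.1 to 37.5 M estimated counts per library, and the RNA integrity number (RIN) from 8.5 to 10. All markers of neurons (7 of 7), excitatory neurons (4 of 4) and astrocytes (7 of 7) were listed in both tables. In CSS 683 of 15097 genes passed an adjusted p of 0.05 in edgeR's quasi-likelihood test, in T2D 0 of 15054. Among cell type markers, 5 of 8 of microglia were called lower in CSS, and their summed level lay between 162 and 276 counts of a gene per M counts (CPM) against 275 to 318 CPM in controls. Of the markers of oligodendrocyte precursors 2 were called higher, as was 1 each of astrocytes, endothelium and meningeal fibroblasts, and 1 of inhibitory neurons was called lower. The largest medians in CSS were those of red blood cell markers (0.82, log2) and meningeal fibroblast markers (0.68). In these, edgeR called 0 of 5 and 1 of 6 and DESeq2 called 3 and 4, all higher. At an unadjusted p under 0.05, 5 in each were higher, beside 11% of all genes. Of the 7 markers of neurons in general edgeR and DESeq2 called 0, with 1 lower at an unadjusted p under 0.05. In T2D the largest medians were those of striatal projection neuron markers (0.53, 6 of 6 above 0) and microglia markers (-0.45, 8 of 8 below 0). At an unadjusted p under 0.05 these had 0 and 4, beside 5.84% of all genes. The summed level of the striatal markers ran from 130 to 1052 CPM in T2D and from 165 to 943 CPM in its controls. The part of cell composition in the results below was not tested, and in tissue RNA fewer cells of a type and less RNA per cell cannot be told apart.

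Several libraries stood apart in the whole gene set, and they bear on the results below. In CSS replicate 5 the members lay low, at a mean of -0.28 (log2 level relative to the mean of the controls), with 6 of 80 above the control mean. CSS_control replicate 5 lay high at 0.17, with 79 of 80 above that mean. In the second cohort T2D replicate 1 lay high at 0.27, again with 79 of 80 genes above, and T2D replicate 2 low at -0.14, with 5 of 80. Its controls spread too, with T2D_control replicate 4 at 0.13 (73 of 80) and T2D_control replicate 3 at -0.12 (9 of 80). Both replicates 5 of the first cohort and T2D replicate 1 were also extreme in a second measure, the slope of log2 level on log2 transcript length over all genes. It used the longest annotated transcript of each gene and is positive where long transcripts are relatively abundant. It was 0.0907 in CSS replicate 5 and -0.0559 in CSS_control replicate 5, the highest and lowest of that cohort, and -0.0465 in T2D replicate 1. The principal transcripts of the members are 371 to 4715 bases long, with a median of 863 bases (the longest transcript for Ndufb1-ps, which has no principal one).

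**Figure D1:**
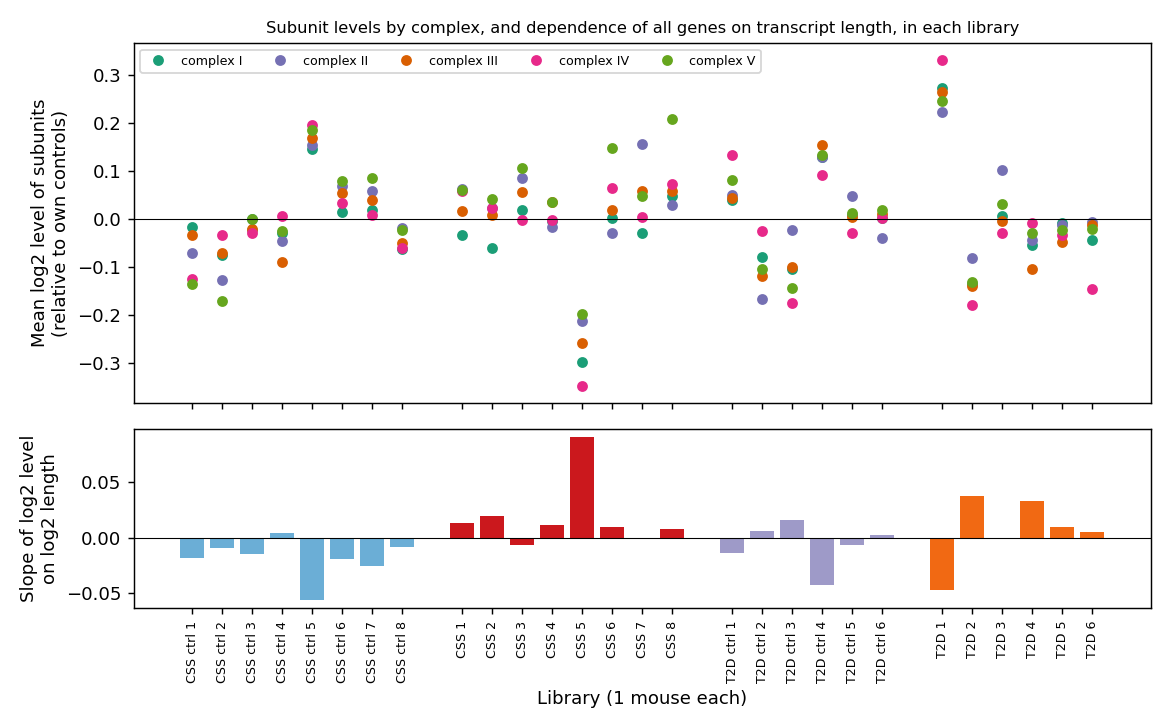
Mean log2 level of the subunits of each complex in each library, relative to the controls of its cohort (top), and the slope of log2 level on log2 transcript length over all genes (bottom). All 5 complexes of CSS replicate 5 lie below 0 and those of CSS_control replicate 5 and T2D replicate 1 above 0, while the slopes of these libraries lie on the opposite side.

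Per kilobase of the longest annotated transcript, the catalytic beta subunit of ATP synthase, Atp5b, was the most abundant member, at 417 ± 34.1 CPM per kb in the social stress controls (SD, n = 8). Cox4i1, the largest nuclear subunit of complex IV, followed at 377 ± 27.4 CPM per kb, and Cox8a, a small subunit of the same complex, at 297 ± 22.3 CPM per kb. The ranges of mean ± SD overlapped for Atp5b and Cox4i1 but not for Cox4i1 and Cox8a. This order was the same with the principal transcript as length, and over the union of all exons Cox8a ranked first and Atp5a1 stood above Atp5b. Sdha, the flavoprotein of succinate dehydrogenase, led complex II at 108 ± 5.30 CPM per kb. Uqcrh, the hinge protein, led complex III at 144 ± 9.12 CPM per kb, although over the exon union Uqcr11 stood above it (101.8 against 93.4 CPM per kb). Ndufb9, an accessory subunit, led complex I at 165 ± 13.4 CPM per kb. Another annotated gene of the same strand, Gm49356, covers 19.5% of the exon bases of Ndufb9, so part of its reads cannot be assigned with certainty. Cycs stood at 28.3 ± 2.20 CPM per kb on a long annotated transcript of 3123 bases. The least abundant member was Cox6a2, the heart and muscle form of a complex IV subunit, at 3.0 ± 0.595 CPM per kb.

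Between mice of a group the members varied less than genes did in the median. Their median coefficient of variation was 9.02% in CSS, 8.78% in its controls, 10.9% in T2D and 8.64% in its controls, against 12.4%, 12%, 15.4% and 12.8% over all genes. Cox6a2 had the widest spread in CSS, at 35.4%, and Atp5g2, a gene of the c subunit of the ATP synthase rotor, in its controls, at 35.1%. These are among the members of lowest level, and no correction for level was made.

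Under chronic social stress 5 of the 80 members were called lower and 0 higher (edgeR adjusted p under 0.05). The share called was 6.25%, beside 4.52% of all genes (2.42% lower, 2.11% higher). Of the 5, 4 were accessory subunits of complex I (Ndufa10, Ndufa12, Ndufa13 and Ndufa5) and 1 was a subunit of complex IV (Cox6b1). Leaving out 1 library gave 2 to 6 called members, with 2 without CSS replicate 6 or CSS_control replicate 1 or 2, and 3 without CSS replicate 4 or 7 or CSS_control replicate 4. Over the whole set the median log2 change was -0.01, with 38 members above 0 and 42 below, against a median of 0.01 over all genes, of which 48.7% were below 0. At an unadjusted p under 0.05 there were 14 lower and 8 higher, 22 of 80, beside 21.5% of all genes (10.5% lower, 11% higher). The median was -0.04 in complex I, 0.02 in complexes II and III, 0.04 in complex IV and -0.01 in complex V.

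Ndufa10, a complex I subunit with a nucleoside kinase-like fold (chr1:92439010-92473860 in GRCm38, minus strand), showed the clearest difference. Its lowest, median and highest levels were 74.3, 93.3 and 101.5 CPM in CSS and 106, 116 and 130.4 CPM in controls. Every stressed mouse therefore lay below every control, which 0.397% of all genes did (0.609% counting both directions), and Ndufa10 was the only member to do so. Means were 91.9 ± 8.93 against 116 ± 9.12 CPM (SD, n = 8 each). The log2 fold change was -0.34 (SE 0.06, edgeR adjusted p = 0.00999). It stayed called in 16 of 16 fits that left out 1 library, the weakest at adjusted p = 0.0265.

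Cox6b1, which caps complex IV on the intermembrane side where its monomers meet (chr7:30616861-30626151, minus strand), had the largest decrease. Its lowest, median and highest levels were 91.3, 115 and 134.2 CPM in CSS and 124, 154 and 172 CPM in controls. The groups overlapped, although 8 of 8 stressed mice lay below the control mean. The means were 115 ± 12.7 and 147 ± 17.9 CPM, a log2 fold change of -0.35 (SE 0.08, edgeR adjusted p = 0.0202), and it was called in all 16 fits without 1 library.

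Since Ndufa10 and Cox6b1 were the members whose calls survived every single left-out library, the 80 bases before their annotated start are shown, 5′ to 3′ on the gene's strand (RefSeq, GRCm38.p6). Each stretch lies outside the annotated exons of the same gene, while exons of other genes were not checked. That of Ndufa10 is chr1:92473861-92473940 and that of Cox6b1 is chr7:30626152-30626231. Capitals mark a match to GGGCGGG (SP1) on either strand.
Ndufa10: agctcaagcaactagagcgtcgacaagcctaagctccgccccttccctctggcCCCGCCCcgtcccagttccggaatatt
Cox6b1: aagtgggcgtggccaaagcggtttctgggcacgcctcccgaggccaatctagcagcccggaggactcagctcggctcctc
The stretch of Ndufa10 holds 1 such match and that of Cox6b1 holds none of the motifs searched, which are listed with the promoters below. A match is a description of these letters only.

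Ndufa12, a subunit of the peripheral arm whose place is held during assembly by the factor Ndufaf2 (chr10:94198720-94221443, plus strand), measured 52.4, 61.7 and 65.7 CPM in CSS at its lowest, median and highest. Controls measured 58.8, 77.6 and 88.0 CPM. Of the controls, replicates 6 and 8 fell inside the stressed range. The log2 fold change was -0.31 (SE 0.07, edgeR adjusted p = 0.0259), lost without CSS replicate 6 or CSS_control replicate 1 or 2.

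Ndufa5, another subunit of the peripheral arm (chr6:24518666-24528013, minus strand), gave 37.7, 45.9 and 51.8 CPM in CSS and 42.6, 59.3 and 68.7 CPM in controls (lowest, median, highest). Of the controls, replicates 6 and 8 fell inside the stressed range. Its log2 fold change was -0.33 (SE 0.09, edgeR adjusted p = 0.0447). The call held in only 5 of 16 fits without 1 library, those without CSS replicate 1 or 2 or CSS_control replicate 6, 7 or 8.

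Ndufa13, also known as GRIM-19 and first described for a role in cell death (chr8:69894180-69902558, minus strand), gave 73.5, 82.1 and 92.4 CPM in CSS and 85.8, 94.4 and 101.9 CPM in controls. Of the controls, replicates 3, 6, 7 and 8 fell inside the stressed range. Its change was the smallest of the 5, at -0.20 (SE 0.05, edgeR adjusted p = 0.0380), and was lost without CSS replicate 4, 5, 6 or 7 or CSS_control replicate 1, 2, 4 or 5. Tssk6 on the opposite strand covers 30.0% of its exon bases, and whether the counting used strand is not given in the sources used here.

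**Figure D2:**
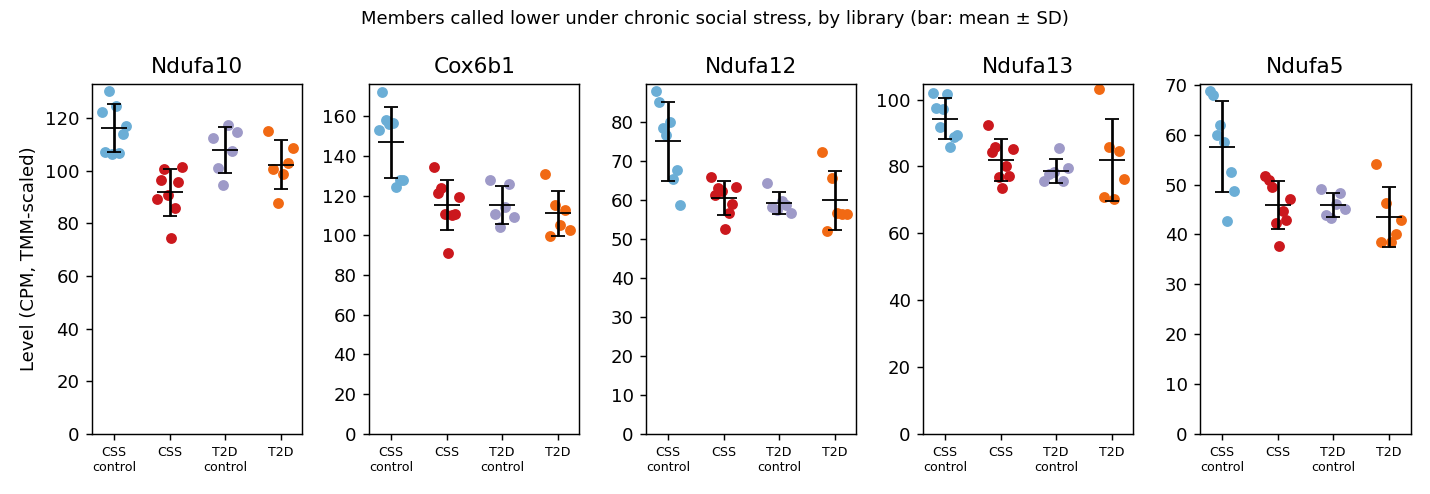
Level in CPM of the 5 members called lower under chronic social stress, 1 point per mouse, with mean and SD as bars; the y axes start at 0 and the 2 cohorts were normalised separately. For Ndufa10 the 8 stressed mice (74.3 to 101.5 CPM) all lie below the 8 controls (106 to 130.4 CPM), while in T2D and its controls the ranges overlap.

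Ndufa10 kept its size against 2 subsets of the controls, formed here from codes in the sample titles. The titles of the first cohort carry a code whose meaning the labels do not give, with the number 1 in 4 controls, 2 in 3 and 3 in 1, and 1, 2, 3 and 4 in 1, 1, 3 and 3 stressed mice. Against the 4 controls of number 1 the log2 change of Ndufa10 was -0.34 (edgeR adjusted p = 0.0204), and against the other 4 it was -0.34 (adjusted p = 0.225). Those of Cox6b1 were -0.47 and -0.22, of Ndufa12 -0.44 and -0.17, of Ndufa13 -0.24 and -0.16, and of Ndufa5 -0.50 and -0.15. Over the whole set 48 members lay above 0 and 32 below against the first subset, and 19 and 61 against the second. Against the first subset 16 members were called (9 higher, 7 lower) beside 7.48% of all genes, and against the second 0 members and 0 genes (0%; 1971 genes and 5 members at an unadjusted p under 0.05). With the code number as a block, Ndufa10 stood at -0.35 (adjusted p = 0.129), and 0 members and 2 genes (0.0132%) were called by edgeR, with 5 members at an unadjusted p under 0.05. Code number and group overlap in that fit, and the 3 stressed mice of number 4 had no control of their number.

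The members with the largest positive values were small subunits of ATP synthase and of complex IV, and none passed the threshold in the fit of all 16 libraries. Atp5e, the epsilon subunit in the central stalk of ATP synthase, measured 33.7, 43.0 and 50.1 CPM in CSS and 22.1, 32.3 and 38.9 CPM in controls (lowest, median, highest). Its log2 fold change was 0.42 (SE 0.13, edgeR adjusted p = 0.0625), and DESeq2, which called 8 members beside 8.82% of all genes, gave it an adjusted p = 0.0220. Against the controls of code number 1 it stood at 0.75 and against the rest at 0.15, and edgeR called it without CSS_control replicate 6. Atp5l, the g subunit of the membrane part, stood at 0.26 (adjusted p = 0.0930) and was called without CSS replicate 5 or without CSS_control replicate 5. Ndufa4 followed at 0.25 (adjusted p = 0.104) and Atp5mpl, a small proteolipid of ATP synthase, at 0.25 (adjusted p = 0.148).

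Which members were called depended on the slope of level on transcript length. That slope moved with the group, at 0.0183 ± 0.0304 in CSS and -0.0183 ± 0.0176 in controls (SD, n = 8 each), above 0 in 6 of 8 stressed mice and in 1 of 8 controls, so slope and group overlap in a fit that holds both. With the slope of each library as a covariate, 110 genes were called in all (0.729%) and 7 members, every one of them higher: Atp5e, Atp5k, Atp5l, Atp5mpl, Ndufa4, Ndufb6 and Uqcr10. Their log2 changes in that fit ran from 0.28 (Atp5k) to 0.64 (Atp5e), with edgeR adjusted p from 0.0258 to 0.0438. None of the 5 members called before was called there, but each kept its direction. Ndufa10 stood at -0.20 (adjusted p = 0.128) and Cox6b1 at -0.25 (adjusted p = 0.193). The median over members moved to 0.10, with 61 above 0 and 19 below, while that of all genes stayed at 0.00. By the longest annotated transcript, which the slope used, the 7 are 510 to 6310 bases long and the other 5 618 to 2020. By the principal transcript the 7 are 371 to 659 bases long and the other 5 again 618 to 2020.

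Leaving out both replicates 5 of the cohort, the libraries of most extreme slope, gave 232 genes (1.54%) and 4 members. Ndufa10 was still lower (-0.28, edgeR adjusted p = 0.0277), and Atp5l (0.37, adjusted p = 0.0199), Ndufa4 (0.36, 0.0277) and Atp5mpl (0.35, 0.0482) were higher. In this fit 49 members lay above 0 and 31 below, with a median of 0.04. Cox6b1 missed the threshold narrowly, at -0.30 (adjusted p = 0.0554).

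**Figure D3:**
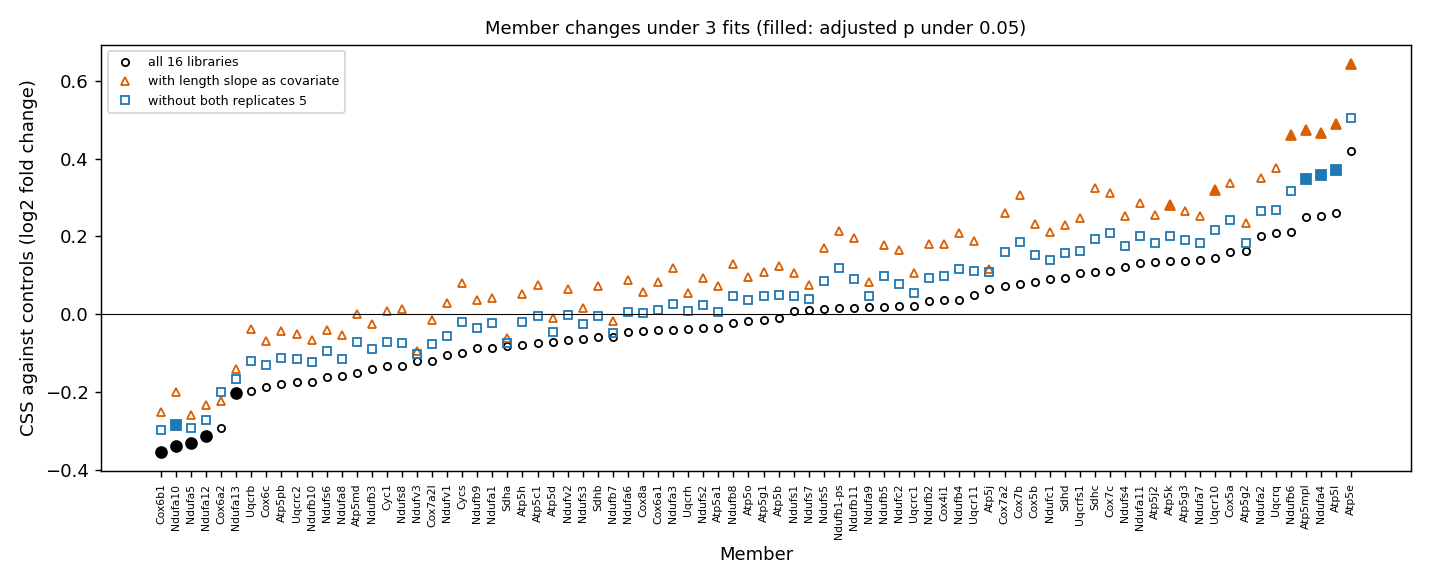
Log2 fold change of each of the 80 members in CSS against controls, ordered by the fit of all 16 libraries (circles), with the length slope as a covariate (triangles) and without both replicates 5 (squares). Filled symbols passed an adjusted p of 0.05 (5, 7 and 4 members); triangles and squares lie above the circles for 80 of 80 members, and the filled triangles are at the right end of the order where the filled circles are at the left.

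By principal transcript length, the members of up to 600 bases had a median log2 change of 0.05 in CSS (9 of 17 above 0). It was 0.01 (16 of 28) above 600 and up to 1000 bases and -0.06 (12 of 34) over 1000 bases. Over all genes of the same lengths the medians were 0.04, -0.05 and 0.01. One member, Ndufb1-ps, was left out of these bins.

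Complexes II, III and V and cytochrome c had 0 members called by edgeR under chronic social stress. At an unadjusted p under 0.05, beside 21.5% of all genes (11% higher, 10.5% lower), complex II had 0 and complex III 3 (1 higher, 2 lower). Cytochrome c had 0 and complex V 5 (4 higher, 1 lower). DESeq2 called 2 members of these parts, beside 8.82% of all genes. They were Atp5e as higher and Atp5pb, the b subunit of the peripheral stalk of ATP synthase, as lower. In complex II the smallest p was that of Sdha, at 279.6, 294 and 315 CPM in CSS and 296, 309.7 and 349 CPM in controls (lowest, median, highest). The groups overlapped, and the log2 fold change was -0.08 (SE 0.04, edgeR adjusted p = 0.258). In complex III it was that of Uqcrc2, a core protein, at -0.17 (SE 0.06, edgeR adjusted p = 0.112), with 8 of 8 stressed mice below the control mean. Uqcrh stood at -0.04 (95% interval -0.15 to 0.07). Cycs stood at -0.10 (SE 0.07, edgeR adjusted p = 0.417), a value that turned to 0.08 with the length slope as covariate. The abundant Atp5b and Cox4i1 stood at -0.01 (95% interval -0.14 to 0.12) and 0.04 (-0.09 to 0.16). Ndufb9 stood at -0.09 (-0.22 to 0.04).

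In diabetic mice 0 of 80 members and 0 of 15054 genes (0%) passed the threshold in edgeR. At an unadjusted p under 0.05 there were 0 members and 879 genes (5.84%), and DESeq2 called 4 genes (0.0266%) and 0 members. The log2 changes of the members ran from -0.21 (Cox6a2) to 0.14 (Sdhc), with a median of 0.01, 45 above 0 and 35 below (49.2% of all genes were below). Groups overlapped for 80 of 80 members, while 0.146% of all genes had groups apart. Sdhc, a membrane anchor of complex II, had the smallest p of the set. Its lowest, median and highest levels were 45.3, 50.1 and 58.2 CPM in T2D and 38.6, 46.9 and 51.4 CPM in controls, and the adjusted p was 0.838. The smallest p in the other complexes belonged to Ndufv3 (I, log2 change 0.11), Uqcrc2 (III, -0.09), Cox5b (IV, 0.10) and Atp5g3 (V, 0.13). Standard errors were wider than in the first cohort, with a median of 0.08 over members against 0.07. The sign of the set depended on single libraries and on covariates, with 0 members called in each of these fits. Without T2D replicate 1 there were 13 members above 0 and 67 below (median -0.05), without T2D_control replicate 2 there were 34 and 46 (-0.01), and without T2D_control replicate 3 there were 32 and 48 (-0.02). With RIN as covariate 65 lay above 0 and 15 below (median 0.05), with the length slope 71 and 9 (0.06), and with 1 surrogate variable 74 and 6 (0.09).

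The members lower under social stress were measured in the diabetic cohort as well. Ndufa10 gave 87.9, 101.7 and 115 CPM in T2D and 94.5, 110.1 and 117 CPM in controls (lowest, median, highest), a log2 change of -0.08 (95% interval -0.25 to 0.09). The groups overlapped over most of their range. Cox6b1 stood at -0.05, Ndufa12 at 0.02, Ndufa13 at 0.06 and Ndufa5 at -0.08 there. Of the 80 members 43 had the same sign in both cohorts, 23 above 0 and 20 below.

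**Figure D4:**
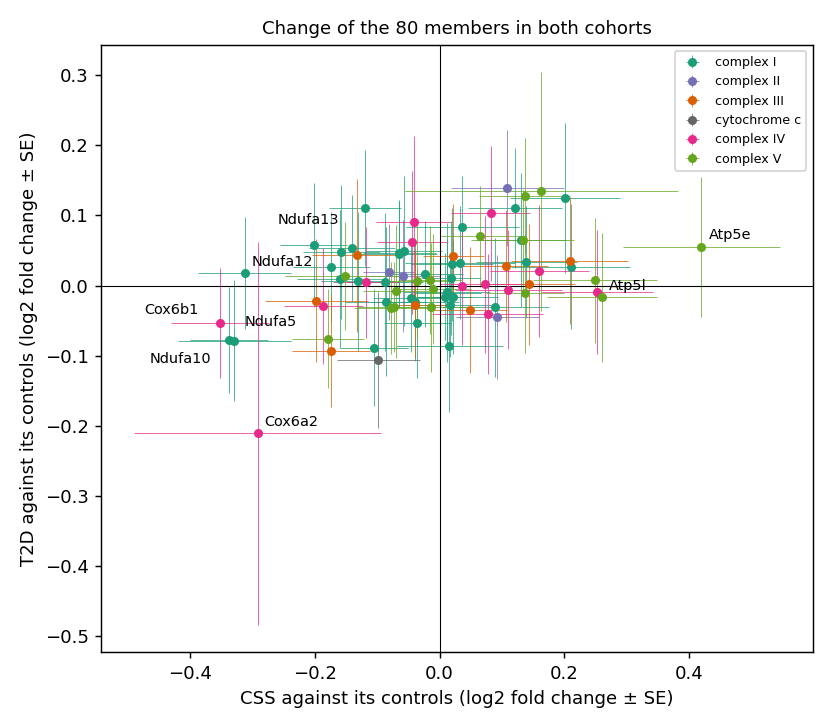
Log2 fold change of the 80 members in CSS (x axis) and T2D (y axis), each against its own controls, with standard errors and coloured by complex. Points spread from -0.35 to 0.42 along the x axis and from -0.21 to 0.14 along the y axis; the 5 members called under CSS and 3 others are named.

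The change in CSS minus that in T2D was tested over all 28 libraries, and 0 members were called beside 12 of 14888 genes (0.0806%, edgeR). DESeq2 called 112 genes (0.783%) and 0 members. At an unadjusted p under 0.05 there were 6 members, all with the lower change in CSS, beside 12.4% of all genes (6.36% lower): Ndufa12, Ndufa10, Ndufa13, Cox6b1, Ndufv3 and Ndufb10. The smallest p was that of Ndufa12, whose difference was -0.34 (SE 0.12, edgeR adjusted p = 0.225). That of Ndufa10 was -0.27 (SE 0.10, adjusted p = 0.270) and that of Atp5e was 0.35 (SE 0.18, adjusted p = 0.418). Sdha stood at -0.11, Uqcrb, a small subunit of complex III, at -0.18 and Cox6b1 at -0.31. So for no member was the response to social stress shown to differ from that to diabetes.

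Several subunits are encoded by more than 1 gene, and the ratio between such genes was compared in each library, where scaling of the library cancels. Atp5g1, Atp5g2 and Atp5g3 encode precursors of the same c subunit, whose ring turns in the membrane. Their last 90 coding bases before the stop codon (GENCODE M21) are shown because the measured ratio depends on telling these genes apart; capitals mark the 24 positions at which the 3 differ.
Atp5g1: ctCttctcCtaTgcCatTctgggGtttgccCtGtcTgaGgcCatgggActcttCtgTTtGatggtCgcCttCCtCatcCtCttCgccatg
Atp5g2: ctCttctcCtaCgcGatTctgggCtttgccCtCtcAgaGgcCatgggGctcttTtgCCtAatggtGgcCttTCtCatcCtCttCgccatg
Atp5g3: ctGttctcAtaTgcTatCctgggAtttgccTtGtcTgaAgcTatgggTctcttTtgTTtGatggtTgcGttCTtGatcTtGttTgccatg
Atp5g1 shares 86.7% of these bases with Atp5g2 and 81.1% with Atp5g3, and Atp5g2 shares 74.4% with Atp5g3. Atp5g1 lies on chromosome 11, Atp5g2 on 15 and Atp5g3 on 2.

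The log2 ratio of Atp5g1 to Atp5g3 was 0.13 ± 0.15 in CSS and 0.28 ± 0.10 in controls (SD). The difference was -0.15 (two-sided exact permutation p = 0.0329, 0.0879 adjusted over 8 tests). In T2D the ratio was -0.11 ± 0.09 against 0.04 ± 0.11. That difference was -0.16 (exact permutation p = 0.0216, adjusted 0.0866), of like size to the first, and neither passed 0.05 after adjustment. Cox7a2l, a member of the Cox7a family, was set against Cox7a2. Their log2 ratio was 0.49 ± 0.10 in CSS and 0.69 ± 0.15 in controls. The difference of -0.19 had an exact permutation p of 0.00824 and missed the threshold after adjustment (0.0659), and in T2D it was -0.00 (p = 0.983 by the same exact test). By title code, the ratio was 0.93, 0.88, 0.71 and 0.68 in CSS_control replicates 1 to 4, those of number 1. In CSS_control replicates 5 to 8 it was 0.50, 0.57, 0.64 and 0.58, and in CSS it ran from 0.34 to 0.61. The part of the code in this difference was not tested. Cox6a2 to Cox6a1 differed by -0.28 in CSS and -0.31 in T2D, both with an adjusted exact p of 0.272. Atp5g2 to Atp5g3 differed by 0.06 and -0.02, both with 0.983, and a near-identical annotated copy of Atp5g2, Gm10175, makes its own level uncertain.

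**Figure D5:**
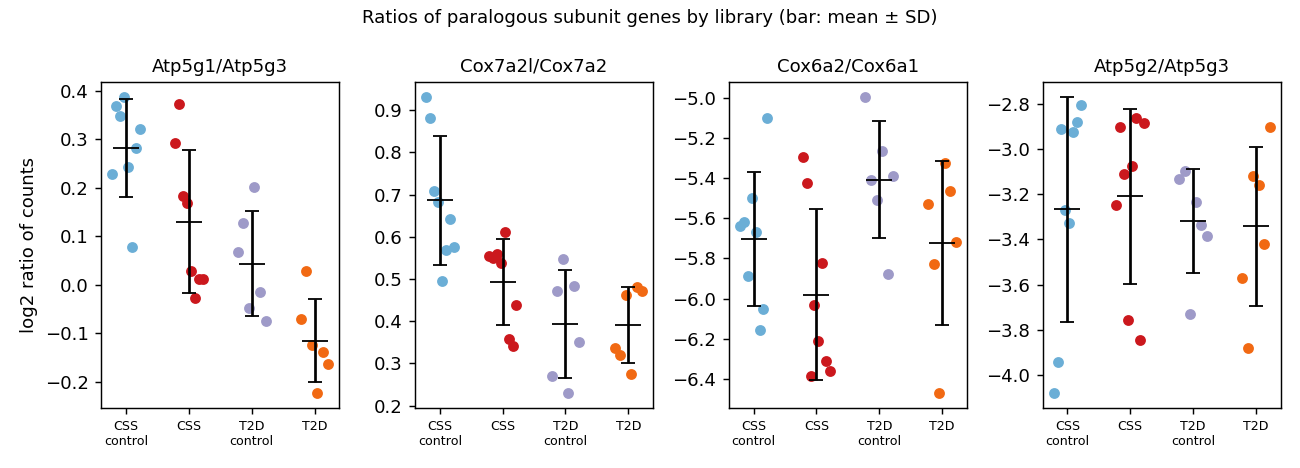
Log2 ratio of counts of 4 pairs of related subunit genes, 1 point per mouse, with mean and SD as bars; each panel has its own y axis, which does not start at 0. For Atp5g1 to Atp5g3 the treated means lie below those of their controls in both cohorts, with overlapping groups.

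Genes that act with the members were read from the same fits. Over all genes in CSS, edgeR called 2.42% lower and 2.11% higher, DESeq2 called 8.82% in either direction, and 48.7% lay below 0. Of the 13 mitochondrially encoded subunits, 6 were called lower and 0 higher in CSS, with a median log2 change of -0.40. The 3 of smallest p were mt-Nd6 (-0.89, edgeR adjusted p = 0.00970), mt-Atp8 (-0.51, 0.0126) and mt-Cytb (-0.43, 0.0193), while mt-Co2 stood at 1.29 without passing (0.0964). DESeq2 called 9 of the 13, with 8 lower and mt-Co2 higher. The summed level of these 13 genes was 3.31 ± 0.362 times that of the members in CSS and 3.70 ± 0.309 times in controls (SD, n = 8 each). The ratio ran from 3.0 to 4.12 in CSS, with the highest value in replicate 5, and from 3.23 to 4.19 in controls, so the groups overlapped. Ratios in T2D were 2.84 ± 0.331 and in its controls 2.87 ± 0.407 (SD, n = 6 each).

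Of the 47 assembly factors tested 1 was called lower in CSS, the complex I methyltransferase Ndufaf7 (-0.22, edgeR adjusted p = 0.0394), and the list had a median of -0.04. At an unadjusted p under 0.05 there were 11 lower and 1 higher, beside 10.5% and 11% of all genes. DESeq2 called 3 lower (Ndufaf7, Sdhaf1 and Uqcc3). Among 16 genes of the citric acid cycle and pyruvate dehydrogenase 3 were called lower and 0 higher, with 13 of 16 below 0 and a median of -0.09. The called ones were Idh3b, a subunit of isocitrate dehydrogenase (-0.19, adjusted p = 0.0329), and Suclg1 (-0.21, 0.0449) and Sucla2 (-0.19, 0.0477), subunits of succinyl-CoA ligase. Of 16 regulators of respiratory gene transcription edgeR called 0, with 1 higher and 1 lower at an unadjusted p under 0.05, and DESeq2 called 1, Gabpb1, a subunit of GABP, as higher (0.24, edgeR adjusted p = 0.0787). Ppargc1a, a coactivator of mitochondrial genes, stood at -0.09, Nrf1 at 0.02 and Tfam, the mitochondrial DNA packaging factor, at -0.13. Of 7 genes of ADP/ATP and phosphate carriers, anion channels and mitochondrial creatine kinase (Slc25a3, Slc25a4, Slc25a5, Vdac1, Vdac2, Vdac3 and Ckmt1) both tools called 0, with 1 lower at an unadjusted p under 0.05. Of 2 genes outside the symbol rule, Ndufab1 and the ATP synthase inhibitor Atpif1, edgeR called 0 and DESeq2 called Atpif1 lower (-0.23, edgeR adjusted p = 0.0778). In T2D and in the difference between cohorts both tools called 0 genes of these lists. At an unadjusted p under 0.05 there were 2 assembly factors, both lower, in T2D, beside 5.84% of all genes. In the difference there were 6 mitochondrially encoded genes, all lower in CSS, 4 assembly factors (1 higher, 3 lower) and 1 regulator. The share of all genes there was 12.4% (6.36% lower).

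Levels of the members varied together from mouse to mouse within groups. After centring in each group, the median pairwise correlation of log2 level between members was 0.51 over the 16 libraries of the first cohort and 0.68 over the 12 of the second, against -0.00 between genes in general. Complex V had the highest median within a complex (0.56 and 0.72) and complex II the lowest (0.31 and 0.52). These values come from libraries that differ in length slope and depth, and libraries standing apart weigh heavily in them. Correlation with the mean of the other members was highest for Atp5c1, the gamma subunit of ATP synthase (0.92), and lowest for Cox6a2 (0.32) and Atp5g2 (0.33). Ndufa5 (0.37) and Ndufa12 (0.45), called lower in CSS, were also among the 6 lowest. Outside the members and the lists above, the genes most like the mean of the members over 28 libraries were Psmb1 (r = 0.92), Fis1 (0.91), Gm10053 (0.90), Psmb7 (0.89) and Mrps33 (0.88).

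Promoters were read as a description, and whether their motifs bear on the co-variation was not tested. The windows used for comparison were not limited to genes of the tables. RefSeq windows of 300 bases (250 before to 50 after the start, GRCm38.p6) were matched for 65 of 80 members, 70 windows in all, and searched on both strands. The NRF1 motif, GCGCA and GCGC with any 1 base between them, was in 25.7% of the members' windows beside 4.6% of all 32851 windows. CCGGAAG (the core of ETS factors such as GABP) was in 24.3% beside 8.86%, and AAGATGGCG (YY1) in 10% beside 1.40%. AAGGTCA (ESRRA) was in 11.4% beside 4.72% and GGGCGGG (SP1) in 32.9% beside 25.6%. An NRF1 or ETS match was present in 30 of 65 members, and in 44.3% of their windows beside 12.6% of all windows. Of the 5 members called lower, Ndufa5 has an NRF1 match and Cox6b1 an ETS match in their windows, and Ndufa10, Ndufa12 and Ndufa13 have neither.

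Exons of other genes were not checked here either. Stretches of 80 bases before the start, outside the annotated exons of the same gene, show such matches for members of 3 complexes, with the match in capitals (5′ to 3′ on the gene's strand). They lie at chr17:56717682-56717761 (Ndufa11, complex I, plus strand), chr13:74350281-74350360 (Sdha, minus), chr9:50603850-50603929 (Sdhd, a membrane anchor of complex II, minus), chr10:80406831-80406910 (Uqcr11, complex III, minus) and chr4:116075072-116075151 (Uqcrh, minus).
Ndufa11: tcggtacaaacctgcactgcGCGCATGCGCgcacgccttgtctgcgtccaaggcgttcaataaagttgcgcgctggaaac
Sdha: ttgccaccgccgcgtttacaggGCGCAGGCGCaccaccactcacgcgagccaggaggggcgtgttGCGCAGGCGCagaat
Sdhd: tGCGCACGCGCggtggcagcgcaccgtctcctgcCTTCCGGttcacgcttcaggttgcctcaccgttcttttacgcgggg
Uqcr11: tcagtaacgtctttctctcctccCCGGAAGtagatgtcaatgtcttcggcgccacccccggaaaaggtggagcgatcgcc
Uqcrh: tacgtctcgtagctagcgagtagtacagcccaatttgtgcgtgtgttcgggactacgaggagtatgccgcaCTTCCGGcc
Ndufa11 carries 1 NRF1 match, Sdha carries 2, and Sdhd carries 1 of NRF1 and 1 of ETS. Uqcr11 and Uqcrh carry 1 of ETS each. Matches in letters are not evidence of binding, and none of these 5 genes was called in either cohort.

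The 80 genes lie on 19 chromosomes, with at most 6 on 1 of them (chromosome 1) and 3 on the X (Cox7b, Ndufa1 and Ndufb11). For 11 of them the annotation holds a transcript of another gene at least 95% identical over at least 50% of the member's principal transcript, most of them processed pseudogenes. Of these, Atp5g2 (Gm10175) and Atp5l (Gm10221) have such a copy among the genes of the tables, so their levels are uncertain where reads could be split. None of the 5 members called lower has one by this measure. A copy of only a short part of a long transcript, such as that of Cycs (3123 bases), would not be counted by it.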

How the data were processed

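Frontal cortex RNA of 28 male mice was sequenced, 1 library per mouse. For either cohort the authors deposited estimated counts by gene in 1 table. Salmon 1.1.0 and the mm10 build are named per the submitters' processing notes. How transcripts were summed, whether values were scaled for length and whether strand was used is not given in the sources used here. The values were rounded to whole numbers. Totals of 12.1 to 37.5 M per library set the counting precision.

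R 4.3.3 with edgeR 4.0.16 (robust quasi-likelihood test, default filter, TMM scaling in each cohort), limma 3.58.1, DESeq2 1.42.0 and sva 3.50.0, Python 3.11.15, matplotlib 3.10.9 and BLAST 2.17.0 were used. Each cohort was fitted by itself and p-values were Benjamini-Hochberg adjusted over all genes, with a threshold of 0.05; the contrast between cohorts used all 28 libraries. Levels are TMM-scaled CPM. Pair ratios added 2 to each count. The test script was tested on simulated data. Of 50 genes with a simulated 1.25-fold change it called 54% in CSS, 16% in T2D and 10% in the contrast between cohorts. For a 2-fold change these were 98%, 98% and 94%. Positions and lengths are from GENCODE M21.

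Groups came from the titles. The members and all gene lists were chosen with earlier results of these data known, so no list was tested as such. Named members were those called, those of smallest p and of highest level per kb in each complex, and the related pairs; for pathway lists, called genes if 5 or fewer, otherwise the 3 of smallest p. Others were named after their values were seen. Alternatives were other scalings, filters, tools, covariates, blocks and control subsets, and leaving out each library. Leaving out both replicates 5 and using the principal transcript as length were added after seeing the data.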

Additional observations from a re-analysis of the deposited data

Results flagged for a closer look

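Within groups of 6 or 8 mice, 92 sets of values (named members and the mean of each complex) were examined for a library whose gap to the rest was large for the range of its group, and 11 had one; chance gives about 5% of such sets. Most came from a few libraries. In CSS replicate 5 the mean log2 level relative to controls was the lowest of its group for complex I (-0.30), complex III (-0.26), complex IV (-0.35) and complex V (-0.20), and Cycs was lowest there too, at 63.0 CPM with the next at 78.3 CPM. CSS_control replicate 5 was the highest of its group for complex I, at 0.15. T2D replicate 1 was the highest for complex I (0.27), complex III (0.26) and complex IV (0.33). Of single members, Sdha in CSS_control replicate 1 stood at 349 CPM with the next at 315 CPM, and Sdhc in CSS replicate 7 at 65.3 CPM with the next at 49.2 CPM. RIN was 9 in CSS replicate 5, 9.3 in CSS_control replicate 5 and 9.2 in T2D replicate 1.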

How the results depend on the processing

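In CSS, 683 genes and 5 members were called, and RLE or upper-quartile scaling, a mean of at least 5 CPM, unrounded values and 1 surrogate variable also gave 5 members, the same ones. The default filter removed none of the 15097 genes, so the fit with no filter was identical. DESeq2 called 1280 genes and 8 members, the length slope as covariate 110 genes, controls of title code number 1 alone 1130 genes and 16 members, the other controls 0 genes and 0 members (1971 genes at an unadjusted p under 0.05), the code number as block 2 genes and 0 members, and the fit without both replicates 5 called 232 genes. With RIN as covariate 4 members were called, without Ndufa5. Leaving out 1 library gave 222 to 794 genes and 2 to 6 members. The count fell by over 1.5 times without CSS replicate 5 (360), 6 (222) or 8 (439) or CSS_control replicate 1 (276), 2 (251), 3 (402), 4 (429) or 5 (414). The median of the members was 0.10 with the length slope, where Cycs turned to 0.080; the part of transcript length itself was not tested. In T2D DESeq2 called 4 genes. For the difference between cohorts (12 genes) DESeq2 gave 112, upper-quartile scaling 6, the 5 CPM filter 24, RIN 0, the length slope 41, 1 surrogate variable 0, the fit without both replicates 5 0, and leaving out 1 library 0 to 32, with 0 members throughout. The near-zero difference of Cycs (0.00) turned to -0.014 with upper-quartile scaling, -0.0027 with the 5 CPM filter, -0.11 with RIN and -0.057 with 1 surrogate variable, and ran from -0.054 to 0.055 without 1 library. Without 1 library the Atp5g2 to Atp5g3 ratio ran from -0.059 to 0.15 in CSS and from -0.11 to 0.084 in T2D, and that of Cox7a2l to Cox7a2 in T2D from -0.034 to 0.030. The causes of these shifts were not tested.

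No clear pairing of samples by replicate number was seen, which does not exclude one. Deviations of same-numbered libraries correlated above 0.1 in 3 of 8 pairs in CSS and 1 of 6 in T2D. The own number was the best match for 2 and 0. With the replicate number as a block, CSS gave 478 genes and 5 members, with Atp5e in place of Ndufa13 (adjusted p = 0.0601), and the difference between cohorts 32 genes with Cycs at -0.0074.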
